A study of Rattus norvegicus with 16 samples.

Results

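The genotype difference between Pink1-/- and wild-type (WT) rat brain was measured over a male and a female cohort together. All 16 libraries of the series entered, 8 Pink1-/- and 8 WT, assigned by the genotype in each sample title and joined across the cohorts by gene identifier. The 4 groups were male Pink1-/-, male WT, female Pink1-/- and female WT, with 4 animals each, and every animal was 8 months old with no treatment named in the labels. Pink1-/- denotes animals homozygous for loss of Pink1, so no cell type was singled out. The sources used here do not give how the allele was made or whether WT animals were littermates. Each cohort has its own count table, so sex and library processing cannot be told apart. A term for cohort was therefore fitted beside genotype, without an interaction, and the genotype difference was estimated within cohorts. The question addressed is which transcripts differ between the genotypes in the same direction in both cohorts.

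PINK1 is a mitochondrial protein kinase. On damaged mitochondria it collects at the outer membrane and phosphorylates ubiquitin and the ubiquitin ligase Parkin, which tags the organelle for removal by autophagy. Loss of PINK1 function causes an early-onset inherited parkinsonism in people, and the nucleus ambiguus, named in the title of the series, is the medullary motor nucleus for the larynx, pharynx and soft palate, muscles of voice and swallowing.

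Total counts ran from 10959412 to 22779651 in Pink1-/- libraries and from 11912656 to 26570195 in WT libraries, and the females were sequenced more deeply. Each of the 24 within-group pairs of libraries exceeded counting noise (chi-square per gene at least 5.57), and log2 levels across genes correlated at 0.971 to 0.983 within pairs. The sample titles number each animal separately. Loci named after a clone of the mitochondrial genome took 36.54% to 43.95% of all counts in males and 1.77% to 11.87% in females, and male Pink1-/- 17 and male WT 23 stood apart from their groups in the share of the 7SL RNA of the signal recognition particle (4.399% and 0.2986%). Markers of cholinergic motor neurons were present but uneven. Chat, which makes acetylcholine, spanned 8.40 to 46.5 CPM in Pink1-/- libraries and 5.07 to 62.0 CPM in WT libraries, and Mnx1 was at 0 in all 16. The summed level of the 15 motor neuron markers was 3040 to 4570 CPM in male Pink1-/-, 2560 to 4870 in male WT, 2130 to 4990 in female Pink1-/- and 2470 to 6870 in female WT libraries, so the groups overlapped in both cohorts. Levels are library-scaled counts (CPM, after scaling by the trimmed mean of M-values, TMM), means are given ± standard deviation (SD) with n = 4 libraries per group, and levels are compared within a cohort.

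Pink1 itself was the gene with the smallest p, and its level matched the genotype label of every library. It does not check the sex or age labels. It had 2.84, 2.12, 2.45 and 1.87 CPM in male Pink1-/- libraries, against 83.1, 85.4, 80.2 and 96.5 CPM in male WT libraries. In females it had 9.34, 3.75, 3.84 and 5.85 CPM in Pink1-/- libraries, against 105, 93.5, 111 and 105 CPM in WT libraries. The genotypes were far apart in both cohorts, and all 8 Pink1-/- libraries kept a low residual count, 21 to 34 reads in males and 68 to 267 in females. The pooled log2 fold change was -4.54 (standard error, SE, 0.19), a level 23.2-fold lower, with an adjusted p of 7.1e-11 by the quasi-likelihood test of edgeR after Benjamini-Hochberg adjustment over all 15042 genes tested. All adjusted p-values of genes below come from that test, and a gene is called where the adjusted p is under 0.05.

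Over both cohorts 103 identifiers were called, 0.685% of those tested, with 50 higher (0.332%) and 53 lower (0.352%) in Pink1-/- brains. Of these, 5 identifiers without a gene name had identical counts in every library, which leaves 99 distinct calls, 46 higher and 53 lower. Totals of pooled calls below count identifiers, these 5 included, unless called distinct. The median size of a called log2 fold change was 0.586. Over 2-fold differences were seen in 16 higher and 12 lower identifiers. Among all genes tested the median log2 fold change was 0.0016. With library totals as the only scaling, 54 were higher and 22 lower among 76 calls.

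Every pooled call had the same sign in the male and the female cohort fitted alone (103 of 103), where 55.7% of all genes tested did. Among the calls, 86 also had an unadjusted p under 0.05 in each cohort alone (46 higher, 40 lower), where 1.2% of all genes tested did. The calls were chosen by the pooled test on these same libraries, which favours both counts, so neither is support of its own. Of the other 17, 12 missed in females and 5 in males. The 4 Pink1-/- libraries did not overlap the 4 WT libraries in either cohort for 42 calls (background 0.479% of genes), in males for 87 (background 14.4%) and in females for 56 (background 3.4%). The difference was larger in males for 75 calls and larger in females for 28. In the authors' deposited tables, 1 per cohort, 101 of the pooled calls are listed in both. Of those, 25 have a false discovery rate under 0.05 in both with the same sign. It is under 0.05 for 82 in the male table, for 34 in the female table and for 10 in neither. The deposited tables come from these same libraries, so these counts are no outside support, and the count over all listed genes was not made.

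**Figure D1:**
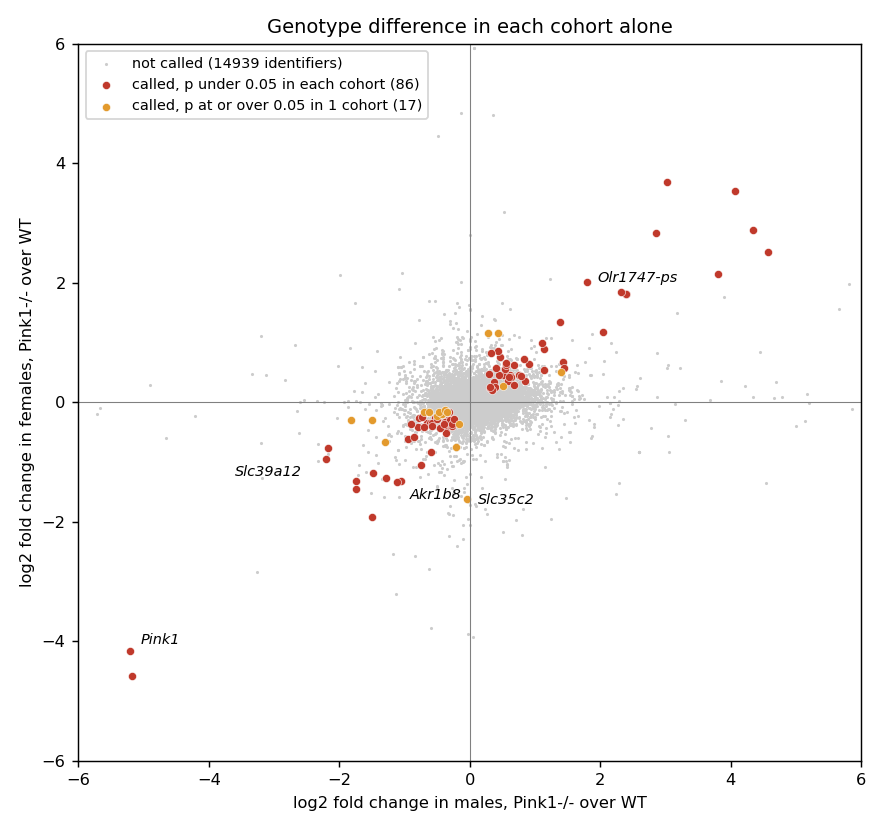
Log2 fold change of Pink1-/- over WT in males alone (horizontal axis) against females alone (vertical axis), 1 point per identifier, with 19 of 15042 identifiers beyond the axis limits of 6. The 103 pooled calls lie in the lower left and upper right of the plot, and Slc35c2 sits close to 0 in males.

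Calls of each cohort were followed in the other, which shares no library with it. Males alone gave 273 calls (1.81% of genes) and females alone 9 (0.0598%). Of the 272 male calls other than Pink1, 193 had the same sign in females (71%, against 55.7% of all genes tested). For 52 that sign came with an unadjusted p under 0.05 in females (19.1%, against 3.2% of all genes tested). The opposite sign with an unadjusted p under 0.05 in females was seen for 5 male calls (1.84%). Over all 15042 genes tested, 704 had an unadjusted p under 0.05 in females, 482 of them with the sign of males. Of the 8 female calls other than Pink1, 7 had the same sign in males (87.5%, against 55.7% of all genes tested). An unadjusted p under 0.05 in males with that sign was seen for 6 (75%, against 15% of all genes tested). Across all genes tested, which are not independent replicates, the male and female log2 fold changes correlated weakly (Pearson r 0.125, Spearman rho 0.161), and without the pooled calls r was 0.0522. Pooling added 37 identifiers that were called in neither cohort alone. In turn, 212 of the 273 male calls and 1 of the 9 female calls were not pooled calls.

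Akr1b8, a rodent aldo-keto reductase that reduces reactive aldehydes, was the call with the next smallest p after Pink1. It had 6.43, 8.88, 10.4 and 7.21 CPM in male Pink1-/- libraries, against 18.2, 16.7, 14.3 and 18.8 CPM in male WT libraries. The female Pink1-/- animals had 17.4, 15.1, 13.1 and 14.7 CPM, against 36.3, 38.0, 39.9 and 37.1 CPM in female WT libraries. No Pink1-/- library reached the lowest WT library of its cohort. The fall was 2.32-fold (log2 fold change -1.21 with an SE of 0.09, edgeR adjusted p = 1.06e-06), and the log2 fold changes of the cohorts alone were -1.06 in males and -1.32 in females.

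Srd5a1, the type 1 steroid 5-alpha-reductase, which makes dihydrotestosterone and the first step of neurosteroids such as allopregnanolone, had 10.4, 18.2, 23.2 and 9.26 CPM in male Pink1-/- libraries, against 30.1, 26.1, 20.7 and 25.1 CPM in male WT libraries. In females the levels were 10.4, 8.82, 9.86 and 9.81 CPM in Pink1-/- libraries, against 21.5, 19.8, 22.1 and 17.4 CPM in WT libraries. The female groups were apart, and in males Pink1-/- 19 lay above WT 23. The pooled log2 fold change was -0.91 (SE 0.15, edgeR adjusted p = 0.00478). Retsat, the retinol saturase, had 25.3, 37.4, 27.2 and 22.4 CPM in male Pink1-/- libraries, against 60.4, 53.8, 76.2 and 83.2 CPM in male WT libraries. Pink1-/- females had 21.8, 18.6, 18.5 and 16.2 CPM, against 69.2, 56.5, 19.0 and 36.6 CPM in female WT libraries. Retsat was apart in males, whereas WT 504 fell within the Pink1-/- range in females (pooled log2 fold change -1.28 with an SE of 0.19, edgeR adjusted p = 0.00223).

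Nudt12, a peroxisomal hydrolase of NADH, averaged 18.2 ± 2.52 CPM in male Pink1-/- and 33.8 ± 3.63 in male WT libraries, and 14.0 ± 1.05 in female Pink1-/- and 18.0 ± 2.95 in female WT libraries (log2 fold change -0.62, edgeR adjusted p = 0.00899). The glycolytic enzyme gene Tpi1, called in neither cohort alone, had 234, 265, 278 and 317 CPM in male Pink1-/- libraries, against 344, 342, 359 and 366 CPM in male WT libraries. Female Pink1-/- libraries had 126, 132, 121 and 150 CPM of Tpi1, against 163, 199, 189 and 159 CPM in female WT libraries. Both cohorts were apart for Tpi1 (log2 fold change -0.40 with an SE of 0.07, edgeR adjusted p = 0.00659). Uqcrfs1, the Rieske iron-sulfur protein of respiratory complex III, was 1.18-fold lower (log2 fold change -0.24, edgeR adjusted p = 0.0262) with no overlap in either cohort, and its call ended without any 1 of 7 libraries (adjusted p up to 0.0772). Those were male Pink1-/- 18 and 19, the 4 male WT and female Pink1-/- 736.

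The peroxisomal division factor Pex11a and the zinc importer Slc39a12 had among the steepest falls. Slc39a12, known as ZIP12 and prominent in brain, had 9.69, 8.40, 8.51 and 6.95 CPM in male Pink1-/- libraries, against 28.6, 29.3, 50 and 47.7 CPM in male WT libraries. In female Pink1-/- libraries it had 10.6, 10.3, 11.0 and 8.87 CPM, against 26.5, 20.6, 18.6 and 13.5 CPM in female WT libraries. Pink1-/- libraries were tightly grouped and WT libraries spread widely, with no overlap in either cohort (log2 fold change -1.54 with an SE of 0.21, edgeR adjusted p = 0.00107). Pex11a had 3.17, 3.67, 3.96 and 4.54 CPM in male Pink1-/- libraries, against 18.0, 21.6, 15 and 14.7 CPM in male WT libraries. The female Pink1-/- animals had 4.51, 6.23, 4.76 and 4.76 CPM, against 9.6, 13.9, 6.66 and 4.38 CPM in female WT libraries. In females WT 980 was below all Pink1-/- libraries (pooled log2 fold change -1.40 with an SE of 0.25, edgeR adjusted p = 0.00981). Other transport genes that fell, chosen here after their values were seen, were Atp1b3, a beta subunit of the sodium pump (-0.48, edgeR adjusted p = 0.0016), and Slc38a2, a carrier of neutral amino acids (-0.31, edgeR adjusted p = 0.0174), kept in 16 and 14 of the 16 fits that leave out 1 library.

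**Figure D2:**
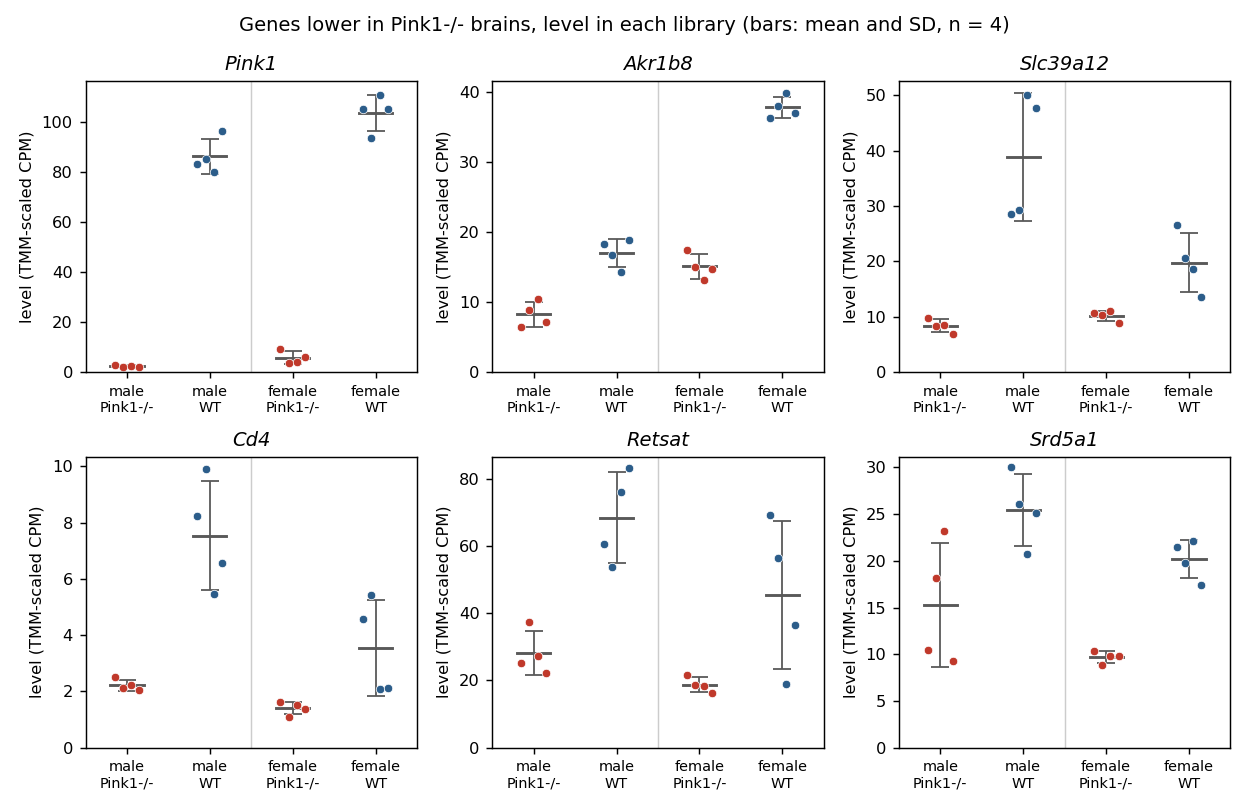
Level in TMM-scaled CPM (vertical axis, linear from 0) of 6 genes lower in Pink1-/- brains, 1 point per library, with the mean and SD of n = 4 per group, Pink1-/- in red and WT in blue. Pink1, Akr1b8 and Slc39a12 do not overlap between genotypes in either cohort, whereas Retsat overlaps in females and Srd5a1 in males.

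Promoters are shown for Pink1, for Akr1b8, and for Ivns1abp and Cnksr3, a fall and a rise among the calls that held whichever library was left out. Each line gives the 250 bases before the annotated start from RefSeq on GRCr8, on the strand of the gene and 5′ to 3′, in lower case. Capitals mark CACGTG, the E-box bound by basic helix-loop-helix factors, among them those that drive lysosome and autophagy genes. Pink1 is at chr5:155825951-155826200 on the minus strand, Akr1b8 at chr4:63964171-63964420 on the plus strand, Ivns1abp at chr13:65976819-65977068 on the plus strand and Cnksr3 at chr1:45996922-45997171 on the minus strand.
Pink1: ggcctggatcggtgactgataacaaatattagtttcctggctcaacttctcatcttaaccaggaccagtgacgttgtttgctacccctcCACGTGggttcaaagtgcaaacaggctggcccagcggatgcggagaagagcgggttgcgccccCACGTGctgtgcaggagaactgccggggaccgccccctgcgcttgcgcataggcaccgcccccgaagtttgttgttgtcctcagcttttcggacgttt
Akr1b8: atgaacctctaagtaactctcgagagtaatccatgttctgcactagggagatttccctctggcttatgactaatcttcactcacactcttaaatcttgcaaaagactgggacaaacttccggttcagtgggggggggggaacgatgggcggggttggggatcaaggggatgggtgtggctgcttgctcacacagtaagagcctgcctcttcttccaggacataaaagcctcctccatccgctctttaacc
Ivns1abp: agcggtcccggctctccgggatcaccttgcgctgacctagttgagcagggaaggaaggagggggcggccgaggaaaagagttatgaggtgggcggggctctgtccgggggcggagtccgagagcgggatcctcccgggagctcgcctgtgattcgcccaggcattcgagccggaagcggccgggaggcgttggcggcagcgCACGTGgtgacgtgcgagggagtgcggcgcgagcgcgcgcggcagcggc
Cnksr3: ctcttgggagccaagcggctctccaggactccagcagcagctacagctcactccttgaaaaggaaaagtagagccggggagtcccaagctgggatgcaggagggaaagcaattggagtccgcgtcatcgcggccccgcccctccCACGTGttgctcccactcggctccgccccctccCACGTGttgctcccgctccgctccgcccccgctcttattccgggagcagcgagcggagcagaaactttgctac

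The windows of Pink1 and Cnksr3 each hold 2 copies of CACGTG, that of Ivns1abp 1 and that of Akr1b8 0. These 4 genes were picked by hand, so their windows do not stand for those of the calls. Among the pooled calls, 68 had a promoter in the RefSeq table by symbol, and 7 of these windows hold the motif (10.3%), against 7.96% of the 10423 promoters matched over all genes tested, both strands being searched. The share was 5 of 29 promoters of higher genes (17.2%: Cep295, Cnksr3, Dhx35, Hspbap1 and Tnfaip2) and 2 of 39 of lower genes (5.13%: Ivns1abp and Pink1). The antioxidant response element core TGACNNNGC was in 10.3% of called promoters and 12.4% of all, without Akr1b8. The amino acid response core TGATGNAA was in 2.94% of called promoters and 1.72% of all, and the interferon-stimulated response element core in 2.94% of called promoters, those of B2m and Cnksr3, and 2.45% of all. These matches describe letters in a window and no binding.

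Cd4, which in the rat is carried by macrophages and microglia as well as T cells, had 2.51, 2.12, 2.21 and 2.05 CPM in male Pink1-/- libraries, against 8.23, 9.90, 5.45 and 6.56 CPM in male WT libraries. In female Pink1-/- libraries it had 1.61, 1.10, 1.52 and 1.38 CPM, against 4.56, 5.42, 2.08 and 2.11 CPM in female WT libraries. The groups were apart in both cohorts, and WT 504 and 980 lay nearest to the Pink1-/- females (log2 fold change -1.52 with an SE of 0.21, edgeR adjusted p = 0.00138). In these bulk samples fewer cells of a type and less RNA per cell cannot be told apart. Cd4 was the 1 called gene of 14 microglia and macrophage markers tested. Their summed level was 172 to 188 CPM in male Pink1-/- and 161 to 223 in male WT libraries, and 105 to 129 in female Pink1-/- and 106 to 134 in female WT libraries, so the sums overlapped.

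Of 25 interferon and antigen presentation genes tested, 2 fell and 0 rose, where 0.352% of all genes tested fell, with a median log2 fold change of 0.013 for the list. Stat2, a transcription factor of type I interferon signalling, had 28.9, 26.2, 25.5 and 29.3 CPM in male Pink1-/- libraries, against 33.9, 30.8, 30.6 and 37.5 CPM in male WT libraries. Pink1-/- females had 32.8, 30.5, 28.9 and 32.3 CPM of Stat2, against 46.2, 38.7, 42.0 and 36.9 CPM in female WT libraries. The genotypes were apart in both cohorts for Stat2 (log2 fold change -0.34, edgeR adjusted p = 0.0172), although its call ended without male Pink1-/- 18 or 19 or male WT 24 (adjusted p up to 0.0604). B2m, the light chain of class I histocompatibility molecules, averaged 314 ± 33.2 CPM in male Pink1-/- and 370 ± 4.83 in male WT libraries, and 97.8 ± 4.17 in female Pink1-/- and 120 ± 13.9 in female WT libraries. It too was apart in both cohorts (log2 fold change -0.26, edgeR adjusted p = 0.0447), and its call held in the leave-one-out fits only without male Pink1-/- 25 or female WT 980 (adjusted p up to 0.118 in the other 14). Tlr3, a sensor of double-stranded RNA chosen here after its values were seen, was at -0.99 (edgeR adjusted p = 0.0472), kept in 3 of the 16 leave-one-out fits, with a female difference that missed an unadjusted p of 0.05.

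Tf, the iron carrier transferrin that oligodendrocytes make in quantity, had 865, 776, 650 and 776 CPM in male Pink1-/- libraries, against 1237, 1265, 918 and 1165 CPM in male WT libraries. In females the levels were 1033, 781, 908 and 1023 CPM in Pink1-/- libraries, against 1538, 1187, 1307 and 924 CPM in WT libraries. Only WT 980 reached into the Pink1-/- range (log2 fold change -0.49 with an SE of 0.10, edgeR adjusted p = 0.0285), and the call ended without any 1 of 9 libraries (adjusted p up to 0.0833). It was the 1 called gene of 14 oligodendrocyte and myelin markers, whose median log2 fold change was -0.026 and whose summed level overlapped between genotypes (11600 to 12900 CPM in male Pink1-/- and 11600 to 14300 in male WT libraries, 11000 to 15000 in female Pink1-/- and 11400 to 14400 in female WT libraries). Tfrc, the transferrin receptor, named after its values were seen, was at -0.27 (edgeR adjusted p = 0.0472) and kept in 2 of the 16 leave-one-out fits.

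Atg12 and Nrbf2, which serve autophagy, fell. Of 37 autophagy and lysosome genes tested 2 fell and 0 rose, where 0.352% of all genes tested fell, with a list median of -0.013. Atg12, the conjugation factor of autophagosome formation, averaged 49.3 ± 6.05 CPM in male Pink1-/- and 71.1 ± 7.60 in male WT libraries, and 34.0 ± 0.586 in female Pink1-/- and 40.9 ± 4.47 in female WT libraries (log2 fold change -0.40, edgeR adjusted p = 0.0174). Nrbf2, a subunit of the autophagy phosphoinositide kinase complex, was lower in females (6.72 ± 0.761 CPM in Pink1-/- and 11.3 ± 0.935 in WT libraries) and overlapped in males (10.4 ± 1.61 and 12.2 ± 1.41), with a pooled log2 fold change of -0.50 (edgeR adjusted p = 0.0353, up to 0.086 without any 1 of 11 libraries). Of the 33 genes of PINK1-Parkin mitophagy tested, Pink1 was the 1 called.

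Ivns1abp, a kelch protein that binds actin and a viral RNA-binding protein, had 125, 135, 133 and 139 CPM in male Pink1-/- libraries, against 210, 258, 250 and 206 CPM in male WT libraries. In females it had 120, 111, 103 and 111 CPM in Pink1-/- libraries, against 126, 132, 179 and 157 CPM in WT libraries, again without overlap (log2 fold change -0.61 with an SE of 0.08, edgeR adjusted p = 0.00138). Nsun6, a methyltransferase of transfer RNA, had 3.84, 3.19, 4.2 and 3.65 CPM in male Pink1-/- libraries, against 8.12, 7.47, 6.48 and 6.56 CPM in male WT libraries. The female Pink1-/- animals had 3.01, 3.25, 3.08 and 2.83 CPM, against 5.35, 4.68, 3.91 and 4.77 CPM in female WT libraries. Nsun6 was apart in both cohorts (log2 fold change -0.77 with an SE of 0.10, edgeR adjusted p = 0.00107). Iars, the cytosolic isoleucyl-tRNA synthetase, was 1.27-fold lower (log2 fold change -0.34, edgeR adjusted p = 0.00963), and Pih1d1, part of the R2TP co-chaperone, 1.63-fold lower (-0.70, edgeR adjusted p = 0.00223), both without overlap. Cast, the calpain inhibitor calpastatin, was 1.43-fold lower (-0.52, edgeR adjusted p = 0.0137), with overlap in females.

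Other named falls were in genes of varied function. Ccdc122, a coiled-coil gene, was at -1.33 (edgeR adjusted p = 0.00963) and Slc35d3, a nucleotide-sugar transporter relative needed for platelet dense granules in the mouse, at -1.23 (edgeR adjusted p = 0.04, up to 0.104 without any 1 of 13 libraries). Sycp2, of the synaptonemal complex of meiosis, was at -0.55 (edgeR adjusted p = 0.0441, up to 0.114 without any 1 of 12 libraries). Gpbp1l2 was 1.24-fold lower without overlap in either cohort (-0.31, edgeR adjusted p = 0.0154). Ogn, a small proteoglycan of fibroblasts and meninges whose symbol belongs to 2 identifiers, also fell. In males it had 4.61 ± 0.582 CPM in Pink1-/- and 16.2 ± 4.03 in WT libraries. In females it had 2.78 ± 0.134 CPM in Pink1-/- and 3.45 ± 1.09 in WT libraries. The pooled log2 fold change of Ogn was -1.06 (edgeR adjusted p = 0.04, up to 0.11 without any 1 of 12 libraries). Its interaction with cohort was 1.53 (edgeR adjusted p = 0.0514), so a difference between the cohorts was not called.

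Among named rises, the smallest p after that of the pseudogene Olr1747-ps belonged to the signalling scaffold Cnksr3, which supports sodium channel regulation by aldosterone. It had 22.2, 19.4, 16.4 and 22.4 CPM in male Pink1-/- libraries, against 15.2, 16.6, 13.9 and 12.7 CPM in male WT libraries. In female Pink1-/- libraries it had 25.6, 21.3, 25.4 and 21.0 CPM, against 12.5, 13.2, 15.1 and 14.3 CPM in female WT libraries. The female groups were apart and the male groups met at Pink1-/- 19 and WT 22 (log2 fold change 0.62 with an SE of 0.09, edgeR adjusted p = 0.00149). Zfp40, a zinc finger gene, had 26.6, 45.7, 32.3 and 48.1 CPM in male Pink1-/- libraries, against 31.3, 31.0, 26.3 and 24.3 CPM in male WT libraries. Pink1-/- females had 39.3, 43.6, 40.0 and 35.6 CPM, against 18.5, 23.7, 21.7 and 23.3 CPM in female WT libraries. Male Pink1-/- 17 lay among the WT males, while no female library overlapped (log2 fold change 0.66 with an SE of 0.12, edgeR adjusted p = 0.0104).

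Kif27, Synm, Celsr1 and Kirrel2, genes of cilia, filaments and cell adhesion, rose. Kif27, a kinesin linked to motile cilia in mice, had 11.9, 15.1, 15.6 and 10.9 CPM in male Pink1-/- libraries, against 8.54, 9.06, 6.28 and 9.46 CPM in male WT libraries. Female Pink1-/- libraries had 14.7, 18.9, 13.6 and 17.7 CPM, against 7.93, 11.3, 9.94 and 12.5 CPM in female WT libraries. Both cohorts were apart although neither called it alone (log2 fold change 0.65 with an SE of 0.11, edgeR adjusted p = 0.00963). A list of motile cilia and ependymal genes had 0 of 18 called (median log2 fold change 0.057). Its member with the smallest p, Jhy, had a male log2 fold change of 2.11 and a female one of 0.09 (pooled 1.04, edgeR adjusted p = 0.152). Synm, the intermediate filament protein synemin, averaged 51.7 ± 8.69 CPM in male Pink1-/- and 35.4 ± 5.82 in male WT libraries, and 80.2 ± 12.9 in female Pink1-/- and 51.9 ± 12 in female WT libraries. Its log2 fold change was 0.59 (edgeR adjusted p = 0.0205), and without male Pink1-/- 18, male WT 22 or female Pink1-/- 548 or 736 the adjusted p was up to 0.0515.

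The planar polarity cadherin Celsr1 was 2.04-fold higher (log2 fold change 1.03, edgeR adjusted p = 0.0327, up to 0.0822 without any 1 of 9 libraries) and the adhesion molecule Kirrel2 1.99-fold higher (0.99, edgeR adjusted p = 0.0174). Further cytoskeletal rises, named after their values were seen, were Cep295, a centriole protein (0.58, edgeR adjusted p = 0.0241), and Eml1, a microtubule-binding protein (0.91, edgeR adjusted p = 0.0241), kept in 11 and 9 of the 16 leave-one-out fits. Eml1 had 62.9, 43.5, 52.6 and 50.8 CPM in female Pink1-/- libraries, against 27.0, 22.0, 50.9 and 46.9 CPM in female WT libraries. WT 504 and 980 thus lay within the Pink1-/- range and WT 64 and 111 below it, whereas the male groups were apart. Fgd3, an activator of the small GTPase Cdc42, was 1.97-fold higher (0.97, edgeR adjusted p = 0.0411, up to 0.0995 without any 1 of 11 libraries).

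Pdgfrb, the platelet-derived growth factor receptor of pericytes, had 28.8, 25.7, 26.0 and 26.7 CPM in male Pink1-/- libraries, against 20.5, 20.5, 14.1 and 17.0 CPM in male WT libraries. The female Pink1-/- animals had 37.1, 33.1, 32.5 and 36.2 CPM, against 31.0, 28.2, 23.3 and 26.8 CPM in female WT libraries. No library overlapped (log2 fold change 0.45 with an SE of 0.08, edgeR adjusted p = 0.0108). It was the 1 called gene of 13 endothelial and pericyte markers. Their summed level was 503 to 522 CPM in male Pink1-/- and 521 to 531 in male WT libraries. In females it was 420 to 454 CPM in Pink1-/- and 375 to 451 in WT libraries. Within the list, Rgs5 had 8.39 and 9.44 CPM in female WT 504 and 980, against 22.6 and 20.4 in WT 64 and 111. Abcc9 had 12.4 and 13.1 CPM in WT 504 and 980, against 27.3 and 26 in WT 64 and 111. Among females Pdgfrb too was lowest in WT 504 and 980. In males Rgs5 and Abcc9, named after their values were seen, overlapped between genotypes. The endothelial sialomucin Emcn, outside that list and named after its values were seen, fell (-0.44, edgeR adjusted p = 0.0353, kept in 4 of the 16 leave-one-out fits).

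Elmod3, a GTPase-activating protein for Arf-like proteins, had 12.5, 12.4, 11.0 and 12.9 CPM in male Pink1-/- libraries, against 9.18, 9.99, 7.72 and 7.40 CPM in male WT libraries. In female Pink1-/- libraries it had 11.4, 11.2, 11.3 and 11.2 CPM, against 6.92, 7.52, 9.76 and 8.54 CPM in female WT libraries. The genotypes were apart in both cohorts (log2 fold change 0.48 with an SE of 0.08, edgeR adjusted p = 0.00723). Cbs, which condenses serine and homocysteine at the entry to transsulfuration, averaged 10.2 ± 1.57 CPM in male Pink1-/- and 5.48 ± 1.05 in male WT libraries, and 23.3 ± 2.14 in female Pink1-/- and 14.9 ± 5.41 in female WT libraries (0.75, edgeR adjusted p = 0.029, up to 0.0663 without any 1 of 10 libraries). Pyroxd2, a mitochondrial oxidoreductase-like protein, was at 0.88 (edgeR adjusted p = 0.0497, up to 0.114 without any 1 of 13 libraries). The zinc finger genes Zfp707l1 (0.52, edgeR adjusted p = 0.00638) and Zfp94 (0.59, edgeR adjusted p = 0.04, up to 0.0958 without any 1 of 13 libraries) also rose, as did the RNA-binding gene Rbm41 (0.77, edgeR adjusted p = 0.0353, up to 0.0819 without any 1 of 13 libraries).

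Several rises were in genes known best from other tissues. Eqtn, an acrosomal protein of sperm, had 2.51, 2.90, 3.5 and 3.03 CPM in male Pink1-/- libraries, against 1.16, 0.560, 0.515 and 0.656 CPM in male WT libraries. Pink1-/- females had 1.61, 4.58, 2.21 and 1.89 CPM, against 0.964, 0.918, 1.76 and 0.832 CPM in female WT libraries, with Pink1-/- 548 under WT 504 (log2 fold change 1.51 with an SE of 0.26, edgeR adjusted p = 0.0093). The olfactory receptor pseudogene Olr1747-ps, for which reads of related receptors cannot be told apart from its own with certainty, was 3.79-fold higher (log2 fold change 1.92 with an SE of 0.25, edgeR adjusted p = 0.000862) with no overlap in either cohort. Adam1a, a metalloprotease known from sperm, was at 0.78 (edgeR adjusted p = 0.0345, up to 0.0833 without any 1 of 11 libraries). Nxpe2 was at 0.61 (edgeR adjusted p = 0.0488, up to 0.107 without any 1 of 14 libraries).

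**Figure D3:**
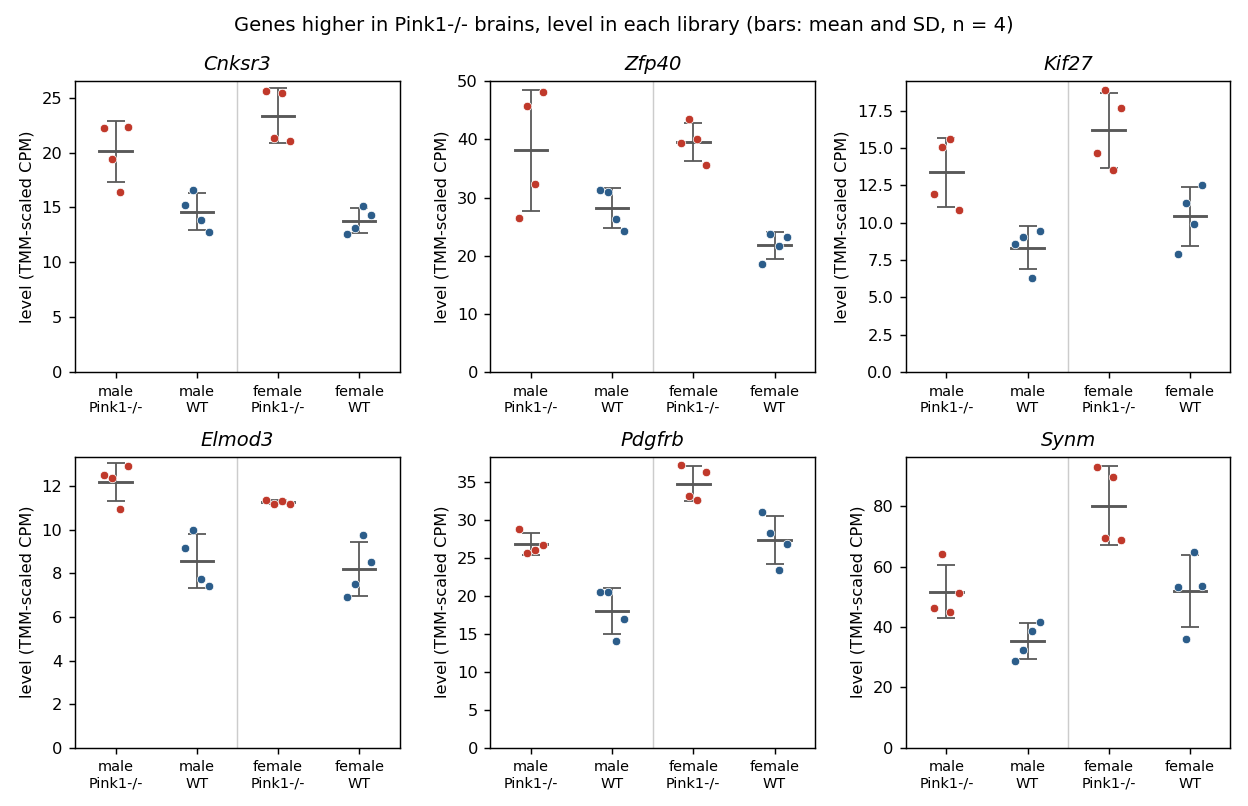
Level in TMM-scaled CPM (vertical axis, linear from 0) of 6 genes higher in Pink1-/- brains, 1 point per library, with the mean and SD of n = 4 per group, Pink1-/- in red and WT in blue. Kif27, Elmod3, Pdgfrb and Synm do not overlap between genotypes in either cohort, whereas Cnksr3 and Zfp40 overlap in males.

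Loci that carry no gene symbol made up 9 of the distinct rises and 7 of the falls, and those given here were chosen after their values were seen. AC127140.1 had 0.167, 0, 0.117 and 0.267 CPM in male Pink1-/- libraries, against 6.75, 5.23, 6.79 and 3.56 CPM in male WT libraries. Female Pink1-/- libraries had 0.0350, 0, 0.152 and 0.0727 CPM, against 3.68, 3.41, 0.0705 and 0.0320 CPM in female WT libraries. Female WT 504 and 980, with 2 and 1 counts, were as low as the Pink1-/- animals, while WT 64 and 111 had 84 and 78 counts (log2 fold change -4.88, edgeR adjusted p = 0.00463). LOC100361025 had 7.69, 4.92, 4.08 and 5.34 CPM in male Pink1-/- libraries, against 0.105, 0.280, 0.103 and 0.375 CPM in male WT libraries. It had 5, 4.08, 5.6 and 5.56 CPM in female Pink1-/- libraries, against 1.14, 0.569, 0.810 and 0.992 CPM in female WT libraries, without overlap (log2 fold change 3.11, edgeR adjusted p = 7.32e-06). LOC100360573 was at 3.52 and AABR07021734.2 at 3.85, each with an edgeR adjusted p of 1.32e-05. These 4 loci were kept in all 16 leave-one-out fits.

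RSEM divides reads between near-identical copies, so calls of multicopy genes are uncertain. M6pr, the mannose 6-phosphate receptor (0.39), and LOC100909548 (-0.49) were called in opposite directions and are interchanged by name between the deposited tables. LOC100362027 (-0.87) shares a name in those tables with a ribosomal protein gene in the same way. LOC100362027 was at -1.50 in males and -0.29 in females, and it passed the test of interaction with cohort (edgeR adjusted p = 0.0499). Of the 16 leave-one-out fits, 3 kept M6pr, 3 LOC100909548 and 6 LOC100362027.

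Within the pooled calls, WT 980 was the female WT library that most often reached the levels of the Pink1-/- females. Of the 103 pooled calls, its level reached the Pink1-/- range of the female cohort for 33 (32%), that of WT 504 for 16 (15.5%), that of WT 111 for 6 (5.83%) and that of WT 64 for 2 (1.94%). The female Pink1-/- libraries reached the WT range for 20 to 28 calls, the male Pink1-/- libraries for 4 to 9. The male WT libraries reached the Pink1-/- range for 5 to 8. The calls were chosen on these same libraries, and the counts over all genes tested were not made. Without WT 980 the pooled count was 282, and all 103 calls were among them. Each of the 8 male libraries, female Pink1-/- 736 and female WT 64 moved the count below 1 in 1.5 of the full value when left out. Without a male library it lay between 56 (WT 22) and 67 (Pink1-/- 25), without female Pink1-/- 736 it was 65 and without female WT 64 it was 61. Kept in every one of the 16 fits were 48 calls, 26 higher and 22 lower, the higher ones including the 5 identifiers with identical counts. Among the 46 calls named by rule, 27 were kept in every fit and 16 were ended by any of 8 or more libraries, female WT 980 being none of these. With 1 surrogate variable 26 of the 46 lost their call: Tpi1, Nudt12, Iars, Ccdc122, Pex11a, Pdgfrb, Cast, Gpbp1l2, Kirrel2, Synm, Uqcrfs1, Tf, Cbs, Celsr1, Adam1a, Nrbf2, Rbm41, Ogn, Slc35d3, Zfp94, Fgd3, Sycp2, B2m, Nxpe2, Txnip and Pyroxd2. With library totals 13 did: Iars, Gpbp1l2, Stat2, Uqcrfs1, Tf, Nrbf2, Ogn, Slc35d3, Slc35c2, Sycp2, B2m, Nxpe2 and Txnip. Without the cohort term 39 did, and Pink1, Olr1747-ps, Slc39a12, Cnksr3, Pex11a and Eqtn were among the 7 that stayed called. Without male Pink1-/- 17 and male WT 23 together, a setting added after seeing the data, 50 genes were called (27 higher, 23 lower), of which 48 were among the 103. The named calls lost there were Ccdc122, Gpbp1l2, Kirrel2, Uqcrfs1, Cbs, Celsr1, Adam1a, Nrbf2, Rbm41, Ogn, Slc35d3, Zfp94, Fgd3, Sycp2, B2m, Nxpe2, Txnip and Pyroxd2.

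**Figure D4:**
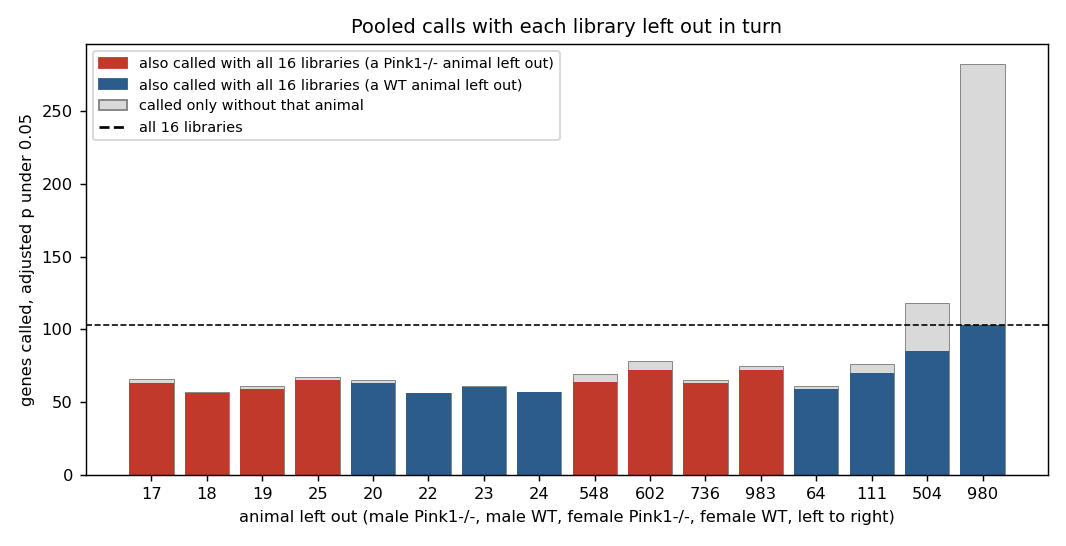
Number of genes called (vertical axis, from 0) when the animal on the horizontal axis was left out, with the dashed line at the 103 calls of all 16 libraries. Coloured bars count calls shared with the full fit and grey bars count further calls, which are most numerous without female WT 980 (282 calls).

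Whether the genotype effect differed between cohorts was tested with an interaction term, which 12 identifiers passed (0.0798% of genes). The same edgeR test gave an unadjusted p under 0.05 for 2112 of the 15042 genes. In the cohorts fitted alone, 24.9% of genes in males and 4.68% in females had an unadjusted edgeR p under 0.05. Of the 12, 6 have a symbol and 2 were pooled calls. Slc35c2, a nucleotide-sugar transporter relative of the Golgi that promotes fucosylation of Notch, was one of them. It had 6.77, 4.15, 3.26 and 5.43 CPM in male Pink1-/- libraries, against 5.91, 4.30, 4.63 and 5.62 CPM in male WT libraries. The female Pink1-/- animals had 7.03, 5.96, 6.43 and 8.10 CPM, against 21.5, 21.6, 17.7 and 24.0 CPM in female WT libraries. Its pooled call (log2 fold change -0.997, edgeR adjusted p = 0.0441, up to 0.115 without any 1 of 11 libraries) therefore rested on the female cohort, and the female minus male difference was -1.58 (interaction, edgeR adjusted p = 0.0225).

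The other interaction genes with a symbol were not pooled calls. The amino acid carrier Slc7a5 was at 0.61 in males and -0.18 in females (log2 fold changes; interaction, edgeR adjusted p = 0.0165), and the Golgi tether Golgb1 at 0.05 in males and -0.57 in females (0.0419). The peptide carrier Slc15a2 was at -0.43 in males and 0.25 in females, the nuclear pore protein gene Aaas at 0.70 in males and -0.29 in females, and Heca at -0.46 in males and 0.06 in females, each with an interaction adjusted p of 0.0499.

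The 13 genes encoded by mitochondrial DNA, which make core subunits of the respiratory chain, had a negative log2 fold change in both cohorts in 13 of 13 cases. The pooled median was -0.334 (-0.212 in males, -0.495 in females), 11 had an unadjusted p under 0.05 and 0 were called by edgeR at an adjusted p under 0.05. These genes are processed from common transcripts and are not 13 independent measures. Together they took 5.886%, 8.209%, 8.567% and 8.213% of counts in male Pink1-/- libraries, against 8.694%, 8.911%, 9.341% and 8.756% in male WT libraries. In females they took 3.421%, 3.645%, 4.042% and 4.326% in Pink1-/- libraries, against 4.608%, 5.195%, 5.017% and 4.543% in WT libraries. No library overlapped in either cohort. The mean within-cohort difference was -1.095 percentage points (2-sided exact permutation within cohorts, p = 0.000408, the smallest the 4900 reassignments allow; adjusted over 4 measures 0.00163).

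With the clone loci and 7SL taken out of the total, a setting added after seeing the data, the males overlapped (9.965% to 15.41% in Pink1-/- and 14.58% to 15.81% in WT libraries) and the females did not (4.13% to 5.478% in Pink1-/- and 5.89% to 6.399% in WT libraries), with a difference of -1.462 points (exact permutation p = 0.00694). Without male Pink1-/- 17, the lowest male, the difference in the share of all counts was -0.7892 points. The 7SL share was 1.225% to 4.399% in male Pink1-/- and 0.2986% to 1.287% in male WT libraries, and 11.48% to 15.4% in female Pink1-/- and 9.201% to 15.93% in female WT libraries (exact permutation p = 0.211). Its part in the result was not tested.

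**Figure D5:**
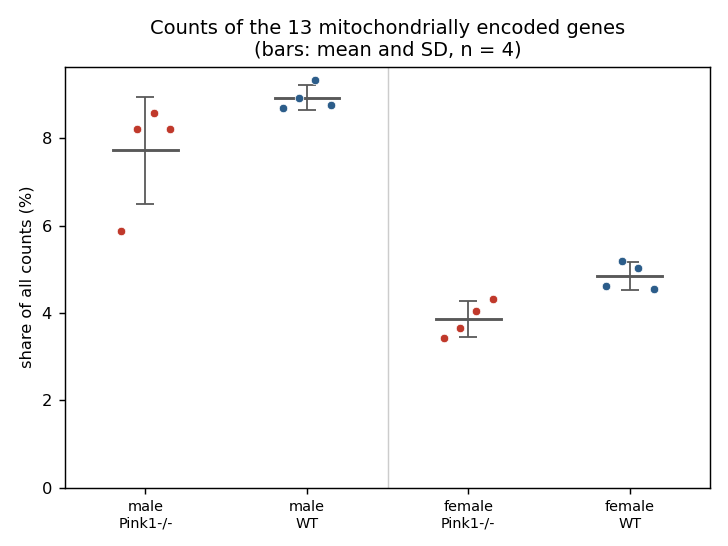
Share of all counts taken by the 13 mitochondrially encoded genes (vertical axis, percent, from 0), 1 point per library, with the mean and SD of n = 4 per group. In each cohort the 4 Pink1-/- libraries (red) lie below the 4 WT libraries (blue).

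Nuclear genes of the same organelle were called at about the share of all genes tested, 0.685%. Of 35 nuclear complex I genes 0 were called (median log2 fold change -0.047), with Ndufa6 at -0.32 (edgeR adjusted p = 0.147). Complexes II to V had 1 fall, Uqcrfs1, among 38 nuclear genes, and a list median of -0.045. In the tricarboxylic acid cycle 0 of 22 were called (Dld -0.24, edgeR adjusted p = 0.14), among heat shock and mitochondrial chaperones 0 of 24 (Hspa4l -0.20, edgeR adjusted p = 0.107), and among 18 genes of inherited parkinsonism 0 (Vps35 -0.21, edgeR adjusted p = 0.27). Of 18 glycolysis genes 1 fell, Tpi1, while 12 had a positive log2 fold change.

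Over the 34 lists examined, 702 genes were tested once each, and 1 rose and 15 fell (2.28%, against 0.685% of all genes tested); the lists were drawn up with earlier results of these data known, so that share is not evidence of its own. Antioxidant and NRF2 target genes gave 1 fall of 29 (Akr1b8), aldo-keto and steroid genes 2 of 19 (Akr1b8 and Srd5a1), peroxisome genes 1 of 28 (Pex11a), zinc transport 1 of 21 (Slc39a12) and Golgi genes 1 of 32 (Slc35c2). At 0.685% of all genes tested, lists this short would hold few calls or 0. Synaptic release genes had 0 of 29 (Snap25 -0.21, edgeR adjusted p = 0.269), neuropeptides 0 of 14 (Nts 0.69, edgeR adjusted p = 0.229) and catecholamine and serotonin genes 0 of 11 (Maoa -0.27, edgeR adjusted p = 0.205). Of 13 cholinergic motor neuron markers 0 were called and 12 had a negative log2 fold change (median -0.254). Chat, Slc18a3, Slc5a7 and Prph were each lowest in WT 111 and highest in WT 504 among female WT libraries. The markers are thus not independent measures. Other lists were also uneven in sign, with a positive log2 fold change in 11 of 12 immediate early genes and 2 of 11 catecholamine and serotonin genes. The proteasome had 0 of 34 (Psma4 -0.25, edgeR adjusted p = 0.0982), the cytosolic ribosome 0 of 58 (Rps25 -0.24, edgeR adjusted p = 0.146), the integrated stress response and serine synthesis list 0 of 23 (Psat1 -0.48, edgeR adjusted p = 0.144), and immediate early genes 0 of 12 (Homer1 0.21, edgeR adjusted p = 0.212).

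Markers of the other cell types a dissection could hold were checked in the same way. Astrocyte markers had 0 of 12 called (Gja1 0.18, edgeR adjusted p = 0.25), oligodendrocyte precursors 0 of 8 (Gpr17 0.43, edgeR adjusted p = 0.22), choroid plexus 0 of 6 (Clic6 -0.43, edgeR adjusted p = 0.529), blood 0 of 4 (Hba-a1 0.52, edgeR adjusted p = 0.485), cerebellum 0 of 7 (Car8 -0.45, edgeR adjusted p = 0.259) and inflammation and complement 0 of 17. Meningeal and fibroblast markers gave 1 fall of 10, Ogn. Their summed level was 157 to 204 CPM in male Pink1-/- and 147 to 188 in male WT libraries. In females it was 265 to 298 CPM in Pink1-/- and 221 to 257 in WT libraries, higher in Pink1-/- without overlap. Most of that female sum was Ptgds, at 251, 247, 240 and 230 CPM in Pink1-/- libraries. The WT females had 223, 192, 205 and 207 CPM of Ptgds, so the sum mainly follows 1 gene. The part of these markers in the results was not tested.

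At the threshold, Txnip, the inhibitor of thioredoxin (0.28, adjusted p up to 0.112 without any 1 of 12 libraries), and Pyroxd2 were the called genes with the largest adjusted p (0.0497 each), and RT1-CE4, a class I histocompatibility gene (-0.76, edgeR adjusted p = 0.0509), and Exosc9, of the RNA exosome (-0.30, edgeR adjusted p = 0.0525), were the next genes outside.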

How the data were processed

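RNA from dissected, flash-frozen brain tissue was made into TruSeq libraries, per the labels' protocols. The deposited values are expected counts per gene, estimated by the authors with RSEM per the submitters' processing notes, already whole and not pooled. The authors' deposited comparison tables hold log2 fold changes and false discovery rates (FDR, adjusted p-values) of Pink1-/- over WT, from edgeR 3.9 per the same notes, and served for gene symbols and 1 count. The aligner, genome build, annotation, strand and filters: not given in the sources used here.

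Both tables were joined by gene identifier (32754). Genes were kept by filterByExpr of edgeR 4.0.16 (minimum count 10, minimum total 15; R 4.3.3) and scaled by TMM. Genotype was tested with the quasi-likelihood test in a model with cohort and genotype, and with Benjamini-Hochberg adjustment over 15042 genes; each cohort alone and the interaction were fitted on the same genes. Standard errors are the absolute log2 fold change divided by the root of F. The script was tested on simulated counts. Library shares were compared by exact permutation within cohorts. DESeq2 1.42.0, limma 3.58.1, sva 3.50.0, other scalings, filters and leaving out each library were alternatives.

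Genes were named by rule: Pink1, the 15 largest rises and 15 largest falls with a symbol, at least 1 CPM in each cohort and an unadjusted p under 0.05 in each cohort with the same sign, the 6 smallest p called only when pooled, interaction calls, list calls or each list's smallest p, and 2 genes on each side of the threshold. The members and lists were chosen with earlier results of these data known. Of 779 entries in 34 lists, 739 matched by symbol, 20 by a synonym and 20 not at all. Pooled p-values measure the spread between animals over all 16 libraries around 1 genotype difference for both cohorts. Disagreement between the cohorts adds to that spread. P-values of a cohort alone measure the spread between animals of that cohort. Sex and processing cannot be told apart. Some genes that the rule names are not reported here.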

Additional observations from a re-analysis of the deposited data

Results flagged for a closer look

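A genotype effect that differs between the cohorts was called for 6 genes with a symbol by the interaction test of edgeR. The adjusted p was 0.0165 for Slc7a5, 0.0225 for Slc35c2, 0.0419 for Golgb1, 0.0499 for Aaas, 0.0499 for Slc15a2 and 0.0499 for Heca. All interaction calls numbered 12, and 3 to 13 when 1 library was left out. Which of the 6 stayed called there was not examined.

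Some libraries lay far from the other 3 of their group, with a gap to the nearest library, as a ratio to the group's range, above Dixon's 95% critical value. Chance gives about 1 in 20 such groups, and 16 of 200 groups examined (8%) had one. In male Pink1-/- 17 the ratio was 0.915 for Atg12 (40.3 CPM), 0.862 for Pyroxd2 (3.51 CPM), 0.866 for the share of the mitochondrially encoded genes (5.886%) and 0.905 for the 7SL share (4.399%). Male Pink1-/- 25 had 0.861 for Adam1a (8.02 CPM) and 0.843 for Olr1747-ps (2.32 CPM), and male Pink1-/- 19 had 0.906 for Ogn (5.48 CPM) and 0.970 for total counts (10959412). Female Pink1-/- 602 had 0.871 for B2m (91.6 CPM), 0.855 for Pex11a (6.23 CPM) and 0.858 for total counts (13875621).

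Among WT animals, male WT 23 had 0.851 for Cbs (3.91 CPM) and 0.880 for the 7SL share (0.2986%), and male WT 24 had 0.901 for Sycp2 (7.21 CPM). Female WT 504 had 0.858 for Eqtn (1.76 CPM) and 0.846 for Slc35d3 (6.45 CPM).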

How the results depend on the processing

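The pooled count of 103 was 99 with RLE size factors, 76 with library totals, 103 without clone loci and 7SL, 100 without a filter and 81 at 1 CPM or more. It was 236 by the likelihood ratio test of edgeR, 252 by DESeq2, 221 by limma-voom, 201 for the mean of the male and female differences, 211 by Stouffer combination and 200 at an adjusted p under 0.10. It was 37 with 1 surrogate variable and 17 without the cohort term. Leaving out 1 library gave 56 to 282 pooled calls, 53 to 212 alike in both cohorts, 96 to 197 in males, 7 to 16 in females and 3 to 13 interactions. Without male Pink1-/- 17 and male WT 23 together, added after seeing the data, there were 50 pooled calls, 48 alike, 132 in males and 7 interactions. The male count was 166 with library totals, 451 without a filter and 950 by the likelihood ratio test, which gave 51 in females and 95 interactions. Interactions were 3 with library totals, 19 without a filter and 20 at 1 CPM or more. Of 46 named calls, the surrogate variable ended 26, the fit without cohort 39, library totals 13 and leaving out both libraries 18. Signs reversed for 3 uncalled values: with 1 surrogate variable Slc15a2 was at 0.0843 and Aaas at -0.0866, and leaving out 1 library put Hba-a1 at -0.0873. The cause was not tested. The share of mitochondrially encoded genes kept its direction and its side of the threshold in all alternatives run, with -1.236 to -0.7892 points when 1 library was left out. No paired analysis was possible because no animal number is shared between groups.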
